A study of Homo sapiens with 4 samples.

Results

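Nuclear genes of oxidative phosphorylation were compared between MDA-MB-231Br, a brain metastatic derivative of a human breast cancer line, and MDA-MB-231, the parental line. A gene was included by its symbol, that is NDUFA, NDUFB, NDUFC, NDUFS or NDUFV with a number, SDHA to SDHD, CYC1, the UQCR and ATP5 families, and the COX4 to COX8 families with a letter A to C, pseudogenes left out. The rule found 79 genes among the 15279 named rows of the deposited table, and 12 pseudogene rows that matched it were not counted. Complex I supplied 35 of them, complex II 4, complex III 10, complex IV 12 and complex V 18. NDUFA4 was counted with complex IV, where its protein sits. The rule also took in COX7A2L, which joins complexes into supercomplexes, and ATP5IF1, the inhibitor of ATP synthase. It passes over the subunit genes COX4I1, NDUFAB1 and DMAC2L and the subunits encoded in mitochondrial DNA.

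The respiratory chain of the inner mitochondrial membrane takes electrons from NADH at complex I and from succinate at complex II, and passes them through ubiquinone, complex III and cytochrome c to oxygen at complex IV. Complexes I, III and IV pump protons as electrons pass, and complex V, the ATP synthase, lets the protons return and makes ATP. Nuclear genes supply most subunits, and many of their promoters carry sites for nuclear respiratory factor 1, ETS-family factors or YY1.

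RNA-seq of total RNA covered 2 libraries of MDA-MB-231Br and 2 of MDA-MB-231, and the study profiled gene expression in the brain metastatic and the parental breast cancer cells. Both lines were grown in DMEM with 10% FBS and PS, with no agent or genetic change named, and RNA was taken with a mirVana kit. As background, MDA-MB-231 is a triple-negative line, and MDA-MB-231Br was selected for brain seeding by passage through mice, so each line is 1 lineage. Nothing in the labels says that paired libraries were grown apart, so the p-values rest on library spread that may be technical, and the libraries of each line are called A and B here. In whole cultures, fewer cells with a transcript and less transcript per cell cannot be told apart.

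Named genes held 28107820 and 25835225 reads in MDA-MB-231Br libraries A and B, and 30771290 and 27554570 in MDA-MB-231 libraries A and B. Values are normalized reads, that is reads divided by a size factor per library, and all 79 genes were among the 14424 that passed the filter on low reads. Of 6 epithelial and mesenchymal markers of these lines, VIM was called higher in MDA-MB-231Br and the others did not pass. VIM had 118095 and 119552 normalized reads in MDA-MB-231Br, against 42476 and 38423 in MDA-MB-231. The epithelial marker EPCAM had 91.2 and 227 in MDA-MB-231Br, against 333 and 398 in MDA-MB-231. The epithelial keratins differed in direction. KRT8 had 2452 and 2438 in MDA-MB-231Br, against 3504 and 3023 in MDA-MB-231, and KRT18 had 2368 and 2321, against 2018 and 1670. The receptor gene ESR1, which a triple-negative line lacks, had 6.72 and 26.5 in MDA-MB-231Br, against 0 and 1.94 in MDA-MB-231. ESR1 did not pass the filter on low reads. The receptor gene ERBB2 had 990 and 1233 in MDA-MB-231Br, against 1239 and 955 in MDA-MB-231 (log2 fold change 0.02 ± 0.255). Leukocyte and fibroblast markers were not analysed here, and 2 of the 6 brain cell markers had a row, with summed values of 3848 and 4189 in MDA-MB-231Br and 2374 and 2615 in MDA-MB-231. The endothelial markers PECAM1 and CDH5 summed to 198 and 218 in MDA-MB-231Br and to 71.7 and 150 in MDA-MB-231. Library pairs of 1 line differed beyond sampling noise, with a chi-square per degree of freedom of 124 for MDA-MB-231Br and 61.4 for MDA-MB-231.

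Of the 79 oxidative phosphorylation genes, 6 were lower in MDA-MB-231Br and 0 were higher at an adjusted p below 0.05, and 73 did not pass. The 6 were NDUFB2, NDUFS6, NDUFA8 and NDUFB11 of complex I, COX8A of complex IV and ATP5MF of complex V. The 6 lower calls are 7.59% of the genes, and among all 14424 tested genes 5.8% were called lower, 8.61% higher and 14.4% in either direction, so the share called lower was near that of the whole table. The test was limma-trend on log2(normalized reads + 1) with Benjamini-Hochberg adjustment over all tested genes. The same 6 were called by edgeR's quasi-likelihood test on reads recovered from the values. Fitted log2 fold changes, given as MDA-MB-231Br minus MDA-MB-231, were below 0 for 69 genes and above 0 for 10, with a median of -0.54 and a range of -1.64 to 0.92. Over all tested genes the median was 0.01, and the quartiles were -0.45 and 0.49. Both MDA-MB-231Br libraries lay below both MDA-MB-231 libraries for 33 of the 79 genes (41.8%), against 29.7% of all tested genes. Both lay above for 2 (2.53%), against 31.7% of all tested genes, and the libraries of the lines overlapped for 44. At an unadjusted p below 0.05 the fit gave 27 genes, beside 4590 of all 14424. Of the 27, 26 were lower (32.9% of the 79 genes), against 14.7% of all tested genes. DESeq2 on the same reads called 17 of the 79 (21.5%), all lower, beside 20.2% of all tested genes in either direction and 8.92% lower. The lowest limma-trend adjusted p among the genes not called was 0.059.

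The number called rested on single libraries. Without MDA-MB-231Br library A, 54 of the 79 genes were called (52 lower and 2 higher), beside 36.4% of all tested genes, and 16.7% of all were lower. Without MDA-MB-231Br library B, 8 were called (7 lower and 1 higher), beside 21.8% of all, and 10.2% of all were lower. Without MDA-MB-231 library A, 1 gene, NDUFB2, was called, beside 2.92% of all in either direction and 0.77% lower. Without MDA-MB-231 library B none of the 79 was called, beside 2.97% of all in either direction and 0.513% lower. The median log2 fold change of the 79 genes was -0.90 without MDA-MB-231Br library A, -0.19 without MDA-MB-231Br library B, -0.73 without MDA-MB-231 library A and -0.29 without MDA-MB-231 library B. In these fits the line left with 1 library was assumed to vary like the other.

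**Figure D1:**
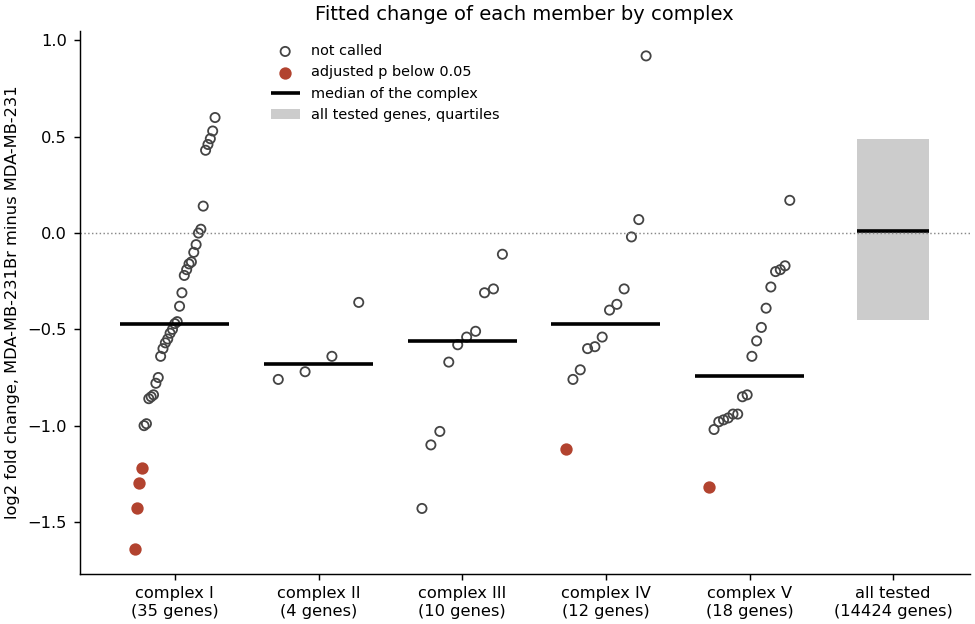
Fitted log2 fold change (MDA-MB-231Br minus MDA-MB-231) of each of the 79 genes, sorted within complexes I to V, with the median of each complex as a bar and the median and quartiles of all 14424 tested genes at the right. The 6 filled points are the genes called at an adjusted p below 0.05, and the complex medians lie between -0.74 and -0.47, beside a median of 0.01 for all tested genes.

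NDUFB2, an accessory subunit of the membrane arm of complex I, had 771 and 425 normalized reads in MDA-MB-231Br libraries A and B, against 1368 and 2338 in MDA-MB-231 libraries A and B. It had the lowest fold change of the 79 genes, at a log2 of -1.64 ± 0.365 (SE, n = 2 each, limma-trend adjusted p = 0.0234), and its fitted level in MDA-MB-231Br was 32.1% of that in MDA-MB-231. NDUFB11, another accessory subunit of that arm, had 824 and 468 normalized reads in MDA-MB-231Br and 1340 and 1577 in MDA-MB-231. Its log2 fold change was -1.22 ± 0.31 (limma-trend adjusted p = 0.0359). For both genes the libraries of the lines did not overlap, and library B was the lower of the MDA-MB-231Br pair and the higher of the MDA-MB-231 pair. NDUFS6, an accessory subunit of the matrix arm that binds zinc, had 935 and 673 normalized reads in MDA-MB-231Br, against 1879 and 2425 in MDA-MB-231. It was lower by a log2 fold change of -1.43 ± 0.267, with the lowest adjusted p of the 79 genes (limma-trend, 0.0126). NDUFA8, an accessory subunit on the intermembrane space side of complex I, had 1063 and 685 normalized reads in MDA-MB-231Br and 1961 and 2242 in MDA-MB-231. Its log2 fold change was -1.30 ± 0.275 (limma-trend adjusted p = 0.0201). These 2 genes showed no overlap between the lines either, and each MDA-MB-231 library was well above both MDA-MB-231Br libraries.

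COX8A, a small nuclear subunit of cytochrome c oxidase, had 1512 and 964 normalized reads in MDA-MB-231Br libraries A and B, against 2202 and 3128 in MDA-MB-231 libraries A and B. Its log2 fold change was -1.12 ± 0.298 (SE, n = 2 each, limma-trend adjusted p = 0.0424). The call was lost with no filter on low reads (adjusted p = 0.0506) and once libraries were corrected for transcript length and GC content (limma-trend adjusted p = 0.0556). ATP5MF, subunit f of the membrane part of ATP synthase, had 1355 and 822 normalized reads in MDA-MB-231Br, against 2263 and 3086 in MDA-MB-231. Its log2 fold change was -1.32 ± 0.303 (limma-trend adjusted p = 0.026), a fitted level of 40% of that in MDA-MB-231. Both genes had the same order of libraries as NDUFB2, with MDA-MB-231Br library B lowest and MDA-MB-231 library B highest. Without MDA-MB-231 library A the adjusted p of the 6 genes ran from 0.0489 to 0.136, and without MDA-MB-231 library B from 0.154 to 0.347 (limma-trend).

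Strand is not stated for the counting, so reads of overlapping genes cannot be told apart. In GENCODE release 29, 42 of the 79 genes share exonic bases with another gene, 23 of them on the same strand and 31 on the opposite one. ATP5MF shares exons with the readthrough gene ATP5MF-PTCD1 and with PTCD1, NDUFB2 with ADCK2, BRAF and NDUFB2-AS1, NDUFB11 with RBM10, and COX8A with AP000721.1. NDUFS6 and NDUFA8 share exonic bases with no other gene of that annotation.

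**Figure D2:**
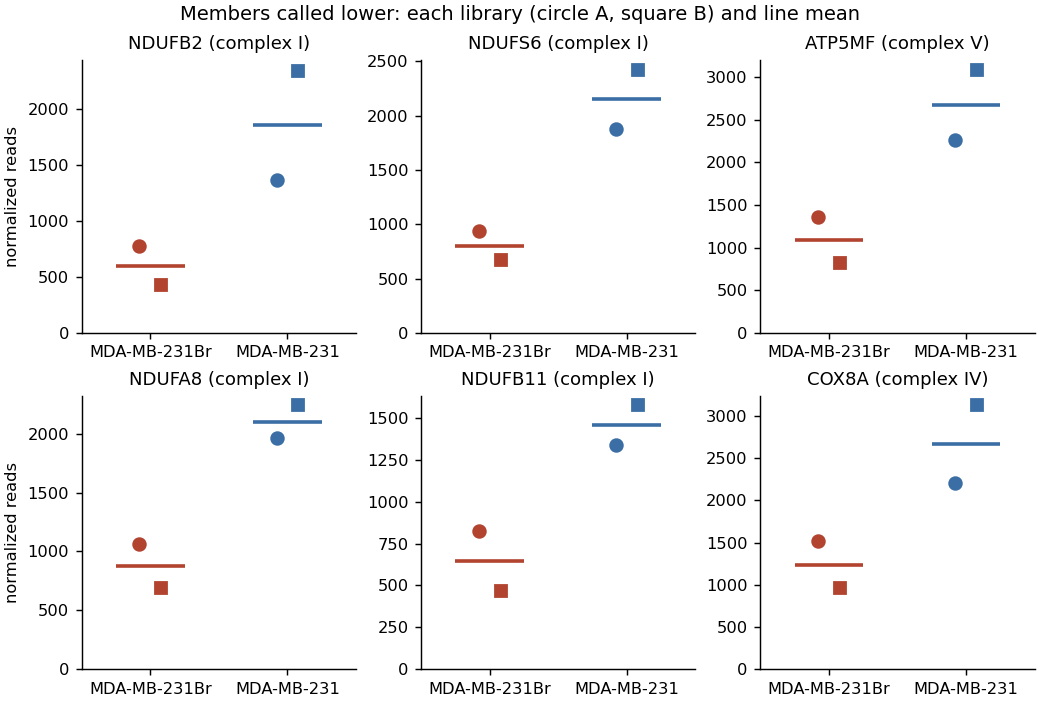
Normalized reads of the 6 genes called lower, per library (circle, library A; square, library B), with a bar at the mean of each line, MDA-MB-231Br left and MDA-MB-231 right. In every panel both MDA-MB-231Br libraries lie below both MDA-MB-231 libraries, as for NDUFS6 with 935 and 673 against 1879 and 2425.

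Promoters are shown for 4 of the 6 genes, chosen because core letters of motifs known from respiratory genes were found in 3 of them and not in the other. RefSeq windows from 250 bases before to 50 after the start (GRCh38.p14) were matched to 65 of the 79 genes. The lines below each give 120 bases before the start and 30 after it, 5' to 3' on the gene's strand, with motif matches in capitals. The stretch of NDUFA8 is chr9:122159750-122159899 on the minus strand and carries 2 overlapping matches to the nuclear respiratory factor 1 letters, 1 on each strand. That of NDUFS6 is chr5:1801287-1801436 on the plus strand and carries 1 match to the same letters. That of COX8A is chr11:63974500-63974649 on the plus strand and carries the ETS letters in reverse orientation. That of NDUFB2 is chr7:140696588-140696737 on the plus strand and carries none of the letters searched.
NDUFA8: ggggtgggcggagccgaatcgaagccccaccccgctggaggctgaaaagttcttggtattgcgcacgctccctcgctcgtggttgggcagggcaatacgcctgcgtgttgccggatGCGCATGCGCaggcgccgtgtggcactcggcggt
NDUFS6: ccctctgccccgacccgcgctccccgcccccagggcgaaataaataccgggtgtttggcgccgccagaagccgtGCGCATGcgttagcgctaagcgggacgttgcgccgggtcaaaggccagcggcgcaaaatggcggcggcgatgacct
COX8A: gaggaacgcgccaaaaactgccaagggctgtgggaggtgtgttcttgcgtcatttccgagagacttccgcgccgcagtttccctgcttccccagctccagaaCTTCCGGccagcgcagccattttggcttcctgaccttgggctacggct
NDUFB2: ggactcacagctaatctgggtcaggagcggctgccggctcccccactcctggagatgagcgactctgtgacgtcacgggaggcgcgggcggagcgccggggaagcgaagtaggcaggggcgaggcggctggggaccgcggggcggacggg
The core letters searched on both strands were GCGCATG for nuclear respiratory factor 1, CCGGAAG for ETS-family factors and AAGATGG for YY1. The first was found in 14 of the 65 windows (21.5%) and in 4.67% of 27305 RefSeq windows of the same length. The ETS letters were found in 19 (29.2%), against 10.7% of all windows, and the YY1 letters in 15 (23.1%), against 6.06%. The 27305 windows were not limited to genes tested here, and no comparison with the tested genes alone was made. Of the 5 called genes with a window, NDUFA8 and NDUFS6 held the first motif, COX8A the ETS motif and none the YY1 motif. A match describes letters and is not a binding site.

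Complex I, the NADH dehydrogenase, had 4 of its 35 genes called lower in MDA-MB-231Br (11.4%), beside 5.8% of all tested genes. It had 0 called higher, beside 8.61% of all tested genes. The 4 genes were all accessory subunits. The median log2 fold change of complex I was -0.47, and 28 genes were fitted below 0 and 7 above. The 7 core subunits, which carry the flavin and the iron-sulfur clusters, had a median of -0.19 with 0 called. The 11 NDUFB subunits of the membrane arm had a median of -0.50 with 2 called lower, and the 17 other accessory subunits -0.52 with 2 called lower. With the length and GC correction the medians were -0.12 for the core, -0.33 for the NDUFB and -0.30 for the other accessory subunits. NDUFS1, the largest core subunit, had 7650 and 6871 normalized reads in MDA-MB-231Br, against 5361 and 4678 in MDA-MB-231, a log2 fold change of 0.53 ± 0.218 (limma-trend adjusted p = 0.137). NDUFA10, an accessory subunit, had 2020 and 2003 normalized reads in MDA-MB-231Br and 1558 and 1372 in MDA-MB-231, a log2 fold change of 0.46 ± 0.222 (limma-trend adjusted p = 0.196). These were the 2 genes of all 79 with both MDA-MB-231Br libraries above both MDA-MB-231 libraries, and neither passed the test. NDUFV1, the core subunit that binds NADH, had 1866 and 1515 in MDA-MB-231Br and 1974 and 1865 in MDA-MB-231 (log2 fold change -0.19 ± 0.23). The lines overlapped for NDUFV1, with MDA-MB-231Br library A just above MDA-MB-231 library B.

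Per kilobase of transcript, NDUFA12, an accessory subunit of the matrix arm, had the highest level in complex I, at 7773 normalized reads per kilobase in MDA-MB-231Br and 8012 in MDA-MB-231. Its libraries had 4919 and 2652 normalized reads in MDA-MB-231Br and 3400 and 4404 in MDA-MB-231, so the lines overlapped (log2 fold change -0.10 ± 0.319, limma-trend adjusted p = 0.855). The largest increase in complex I was that of NDUFV2, an iron-sulfur core subunit, with 34.6 and 82.7 normalized reads in MDA-MB-231Br and 27.3 and 44.6 in MDA-MB-231 (log2 fold change 0.60 ± 0.526, limma-trend adjusted p = 0.462). NDUFV2 had few reads, and the pseudogene NDUFV2P1 held 86.8% and 61.4% of the reads of the pair in MDA-MB-231Br and 89.2% and 86.8% in MDA-MB-231. The level of NDUFV2 is therefore uncertain.

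Complex II, succinate dehydrogenase, had no gene called, with all 4 fitted below 0 and a median log2 fold change of -0.68. Both MDA-MB-231Br libraries lay below both MDA-MB-231 libraries for each of the 4, beside 29.7% of all tested genes. SDHA, the flavoprotein that oxidises succinate, had 2552 and 2014 normalized reads in MDA-MB-231Br, against 4065 and 3629 in MDA-MB-231. Its log2 fold change was -0.76 ± 0.232 (limma-trend adjusted p = 0.0643), the largest decrease in the complex. SDHA was past the threshold with DESeq2 on recovered reads (adjusted p = 0.029) and once libraries were corrected for length and GC content (limma-trend adjusted p = 0.0158). SDHB, the iron-sulfur subunit, had 2086 and 1325 in MDA-MB-231Br and 2319 and 2909 in MDA-MB-231 (log2 fold change -0.64 ± 0.281). Among the membrane anchors, SDHD had 2552 and 1912 in MDA-MB-231Br and 2936 and 4524 in MDA-MB-231 (log2 fold change -0.72 ± 0.282). SDHC, the other anchor and the highest of the complex per kilobase, had 2039 and 1717 in MDA-MB-231Br and 2335 and 2475 in MDA-MB-231 (log2 fold change -0.36 ± 0.224, and 0.09 once libraries were corrected for length and GC content). The median of the complex was -0.93 without MDA-MB-231Br library A and -0.42 without MDA-MB-231Br library B.

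Complex III, the ubiquinol-cytochrome c reductase, had no gene called. All 10 were fitted below 0, with a median log2 fold change of -0.56. Both MDA-MB-231Br libraries lay below both MDA-MB-231 libraries for 6 (60%), beside 29.7% of all tested genes. UQCR11, a small subunit, had 841 and 357 normalized reads in MDA-MB-231Br, against 1142 and 1917 in MDA-MB-231. Its log2 fold change was -1.43 ± 0.425 with the lowest adjusted p among the genes that did not pass (limma-trend, 0.059). With DESeq2 on recovered reads its adjusted p was 0.00583, and once libraries were corrected for length and GC content 0.0213 (limma-trend). The small subunits UQCRQ and UQCR10 had log2 fold changes of -1.10 ± 0.387 and -1.03 ± 0.338, and the 6 small subunits together had a median of -0.77. With the length and GC correction that median was -0.58, nearly level with -0.57 for the catalytic subunits CYC1 and UQCRFS1. CYC1, cytochrome c1, an electron carrier of the complex, had 2781 and 1715 normalized reads in MDA-MB-231Br and 2997 and 3536 in MDA-MB-231 (log2 fold change -0.58 ± 0.28), and UQCRFS1, the Rieske iron-sulfur protein, had a log2 fold change of -0.54 ± 0.288. UQCRC2, a core protein, had 3262 and 2773 in MDA-MB-231Br and 3232 and 3256 in MDA-MB-231, the smallest difference in the complex (log2 fold change -0.11 ± 0.219). The lines overlapped for UQCRC2, with MDA-MB-231Br library A slightly above both MDA-MB-231 libraries.

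UQCRB, the ubiquinone-binding small subunit, had the highest level of complex III per kilobase, at 6915 normalized reads in MDA-MB-231Br and 9774 in MDA-MB-231. Its libraries had 5431 and 3489 normalized reads in MDA-MB-231Br and 5194 and 7415 in MDA-MB-231, which overlap (log2 fold change -0.51 ± 0.292). The hinge subunit UQCRH had 4230 and 2177 in MDA-MB-231Br and 2609 and 5272 in MDA-MB-231 (log2 fold change -0.29 ± 0.405, and 0.05 with the length and GC correction). UQCRHL, its near copy, took 7.75% and 8.26% of the reads of the pair in MDA-MB-231Br and 8.63% and 7.65% in MDA-MB-231, so reads may be split between the copies in an unknown way.

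Complex IV, cytochrome c oxidase, had 1 of 12 genes called lower, COX8A (8.33%, beside 5.8% of all tested genes), and a median log2 fold change of -0.47. The libraries of the lines overlapped for 10 of the 12. The exceptions were COX8A and COX5A, both lower (16.7%, beside 29.7% of all tested genes). COX5A, a matrix-side subunit, had 2542 and 1719 normalized reads in MDA-MB-231Br, against 3108 and 3228 in MDA-MB-231 (log2 fold change -0.60 ± 0.255, limma-trend adjusted p = 0.15). COX7C, a small membrane subunit, was the highest of the complex per kilobase, at 8180 normalized reads in MDA-MB-231Br and 13830 in MDA-MB-231. Its 4 libraries spread widely, with 7265 and 3631 normalized reads in MDA-MB-231Br and 6117 and 12304 in MDA-MB-231, and the lines overlapped (log2 fold change -0.76 ± 0.41). NDUFA4, which was once counted with complex I, had 3779 and 2337 in MDA-MB-231Br and 3507 and 6698 in MDA-MB-231 (log2 fold change -0.71 ± 0.357). COX7A2L, the supercomplex factor, had 4953 and 2574 in MDA-MB-231Br and 3658 and 6029 in MDA-MB-231, while its relative COX7A2, a subunit, had 4341 and 2221 in MDA-MB-231Br and 3401 and 6403 in MDA-MB-231. Their log2 fold changes were -0.40 ± 0.362 and -0.59 ± 0.391. For COX7C, NDUFA4, COX7A2L and COX7A2 alike the lines overlapped, with MDA-MB-231Br library A above MDA-MB-231 library A and the B libraries the other way round.

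COX6A1 and COX6B1, the isoforms found in most tissues, had log2 fold changes of 0.07 ± 0.265 and -0.37 ± 0.294, with overlap between the lines for both. COX7B2, a paralog of COX7B, had the largest increase of all 79 genes, with 44.2 and 124 normalized reads in MDA-MB-231Br and 24.7 and 60.1 in MDA-MB-231 (log2 fold change 0.92 ± 0.606, limma-trend adjusted p = 0.331). COX7B itself had 4584 and 2864 in MDA-MB-231Br and 2536 and 5295 in MDA-MB-231 (log2 fold change -0.02 ± 0.377). COX7B2 had few reads, and the libraries of 1 line differed from each other by more than the lines did.

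Complex V, the ATP synthase, had the lowest median of the complexes, at a log2 fold change of -0.74. With the length and GC correction its median was -0.48, and those of complexes III and II were lower, at -0.58 and -0.53. It had 1 of 18 genes called lower (ATP5MF, 5.56%), beside 5.8% of all tested genes, and 17 were fitted below 0. Both MDA-MB-231Br libraries lay below both MDA-MB-231 libraries for 10 (55.6%), beside 29.7% of all tested genes. The 5 small membrane subunits, ATP5MD, ATP5ME, ATP5MF, ATP5MG and ATP5MPL, had a median of -0.94 and a range of -1.32 to -0.85. The 4 subunits of the peripheral stalk, which holds the catalytic head still, had a median of -0.74 with ATP5PF at -0.96 ± 0.314 and ATP5PD at -0.20 ± 0.291. The 5 subunits of the catalytic F1 head had a median of -0.39. With the length and GC correction the medians were -0.67 for the small membrane subunits, -0.65 for the peripheral stalk and -0.29 for the head. ATP5F1B, the catalytic beta subunit, was the highest of the complex per kilobase in MDA-MB-231Br at 8209 normalized reads. It had 9808 per kilobase in MDA-MB-231, where ATP5MG was higher at 10763. ATP5F1B had 17535 and 12658 normalized reads in MDA-MB-231Br, against 18248 and 17824 in MDA-MB-231 (log2 fold change -0.28 ± 0.242, limma-trend adjusted p = 0.466). ATP5F1A, the alpha subunit, had 17431 and 11071 in MDA-MB-231Br and 16045 and 15293 in MDA-MB-231 (log2 fold change -0.17 ± 0.267). The MDA-MB-231 libraries were close together for both genes and the MDA-MB-231Br libraries were far apart. ATP5F1E, the small epsilon subunit of the head, had 6062 and 3242 in MDA-MB-231Br and 6305 and 11968 in MDA-MB-231 (log2 fold change -0.97 ± 0.383). ATP5IF1, which inhibits the synthase when it runs backwards, had 1641 and 1080 normalized reads in MDA-MB-231Br, against 2194 and 3156 in MDA-MB-231 (log2 fold change -0.98 ± 0.293, limma-trend adjusted p = 0.0602). Its decrease passed with DESeq2 on recovered reads (adjusted p = 0.0137) and not once libraries were corrected for length and GC content (limma-trend adjusted p = 0.0649).

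The ring of c subunits turns as protons pass, and ATP5MC1, ATP5MC2 and ATP5MC3 encode the same mature protein. Their log2 fold changes were -0.19 ± 0.292, 0.17 ± 0.311 and -0.49 ± 0.336, and the lines overlapped for all 3. Of the reads per kilobase of the trio, ATP5MC3 held 60.5% and 56.3% in MDA-MB-231Br and 65.6% and 66.2% in MDA-MB-231. ATP5MC2 held 19.5% and 20% in MDA-MB-231Br and 14.8% and 13.5% in MDA-MB-231. ATP5MC1 held 20% and 23.7% in MDA-MB-231Br and 19.5% and 20.3% in MDA-MB-231. The shares of ATP5MC3 and ATP5MC2 did not overlap between the lines, while those of ATP5MC1 did. Shares of 1 library make up a whole, so they do not move independently. With 2 libraries each the smallest exact two-sided permutation p is 0.333.

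Libraries of 1 line differed in these genes about as much as the lines did. MDA-MB-231Br library B was below library A for 77 of the 79 genes (97.5%), against 50% of all tested genes, with a median log2 difference of -0.72. NDUFV2 and COX7B2, both with few reads, were the 2 exceptions. MDA-MB-231 library B was above library A for 71 genes (89.9%), against 51.4% of all tested genes, with a median of 0.51. As medians of the log2 deviation from the mean of the 4 libraries, the 79 genes stood at 0.07 and -0.62 in MDA-MB-231Br libraries A and B and at 0.03 and 0.50 in MDA-MB-231 libraries A and B. MDA-MB-231Br library A and MDA-MB-231 library A were thus nearly level, and the B libraries lay on opposite sides of them. Against the MDA-MB-231 mean, the median log2 difference was -0.19 for MDA-MB-231Br library A and -0.90 for library B. Every complex had this order for MDA-MB-231Br, with medians from -0.42 to -0.05 for library A and from -1.16 to -0.77 for library B. Without MDA-MB-231 library B the complex medians of the fold change were -0.24, -0.45, -0.43, -0.09 and -0.47 for complexes I to V. The 79 genes took 0.82% and 0.514% of the reads in MDA-MB-231Br libraries A and B, and 0.804% and 1.08% in MDA-MB-231 libraries A and B. That is 0.667% ± 0.217 in MDA-MB-231Br and 0.941% ± 0.194 in MDA-MB-231 (SD, n = 2 each), and the difference of -0.274 percentage points is little larger than either SD.

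**Figure D3:**
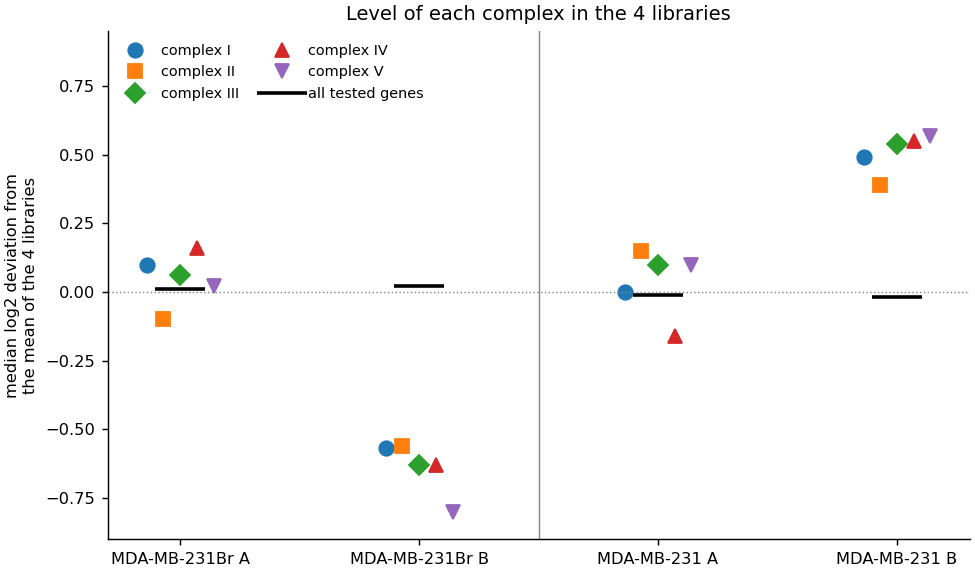
Median log2 deviation from the mean of the 4 libraries for the genes of each complex (symbols) and for all tested genes (bars), per library, with MDA-MB-231Br left of the line and MDA-MB-231 right of it. The complexes move together, between -0.16 and 0.16 in the A libraries, lowest in MDA-MB-231Br library B and highest in MDA-MB-231 library B, while all tested genes stay between -0.02 and 0.02.

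A list of pseudogenes kept as a possible sign of RNA quality set 1 of these libraries apart, and what it reflects was not tested. Pseudogene copies of mitochondrial genes, of which 8 of 10 listed had a row, took 0.0446% and 0.131% of reads in MDA-MB-231Br libraries A and B, and 0.0362% and 0.0379% in MDA-MB-231 libraries A and B. MDA-MB-231Br library B, the library with the lowest oxidative phosphorylation levels, thus had the highest share, while the MDA-MB-231 libraries had nearly the same share. MTCO1P12 had 4274 and 13608 normalized reads in MDA-MB-231Br libraries A and B, MTATP6P1 2649 and 10557, and MTND2P28 2165 and 8577. In MDA-MB-231 libraries A and B, MTCO1P12 had 3101 and 3540, MTATP6P1 3180 and 2934, and MTND2P28 2118 and 2041. Of the 8 pseudogenes, 2 were called higher in MDA-MB-231Br, MTRNR2L8 and MTRNR2L12, beside 8.61% of all tested genes. MTRNR2L8 had 1152 and 1071 normalized reads in MDA-MB-231Br, against 368 and 615 in MDA-MB-231, and MTRNR2L12 had 1676 and 1965 in MDA-MB-231Br, against 673 and 940 in MDA-MB-231. Their part in the result was not tested.

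Transcript length moved with the differences too. The 79 genes are short, with a median transcript length of 750 nucleotides against 2365 for all tested genes, and 53 of them are under 1000. Among all tested genes under 1000 nucleotides, the median log2 difference was -0.37 for MDA-MB-231Br minus MDA-MB-231, -0.42 for MDA-MB-231Br library B minus A, and 0.37 for MDA-MB-231 library B minus A. The 53 oxidative phosphorylation genes of that length had medians of -0.56, -0.77 and 0.56 for the same differences. From 2000 to under 4000 nucleotides, all tested genes had a median of 0.10 between the lines, and the 9 oxidative phosphorylation genes had -0.47. Across the 79 genes, Pearson's r of the fold change with log2 length was 0.14 and Spearman's rho 0.10. For MDA-MB-231Br library B minus A these were 0.17 and 0.24, and for MDA-MB-231 library B minus A -0.47 and -0.38. They are descriptions over genes that share libraries. After each library was corrected for length and GC content, the median of the 79 genes was -0.29, beside -0.04 for all tested genes, and 13 genes were called lower and 2 higher (limma-trend), while 12% of all tested genes were called lower and 23.3% in either direction. The complex medians were then -0.13 for complex I, -0.53 for complex II, -0.58 for complex III, -0.20 for complex IV and -0.48 for complex V. NDUFB2, NDUFS6, NDUFA8, NDUFB11 and ATP5MF remained among those called lower, with corrected log2 fold changes of -1.24, -1.14, -1.07, -1.06 and -0.73. ATP5MF and COX8A moved most among the 6, from -1.32 and -1.12 before the correction to -0.73 and -0.62 after it, and the 2 called higher were NDUFA1 and NDUFB9, small accessory subunits of complex I.

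**Figure D4:**
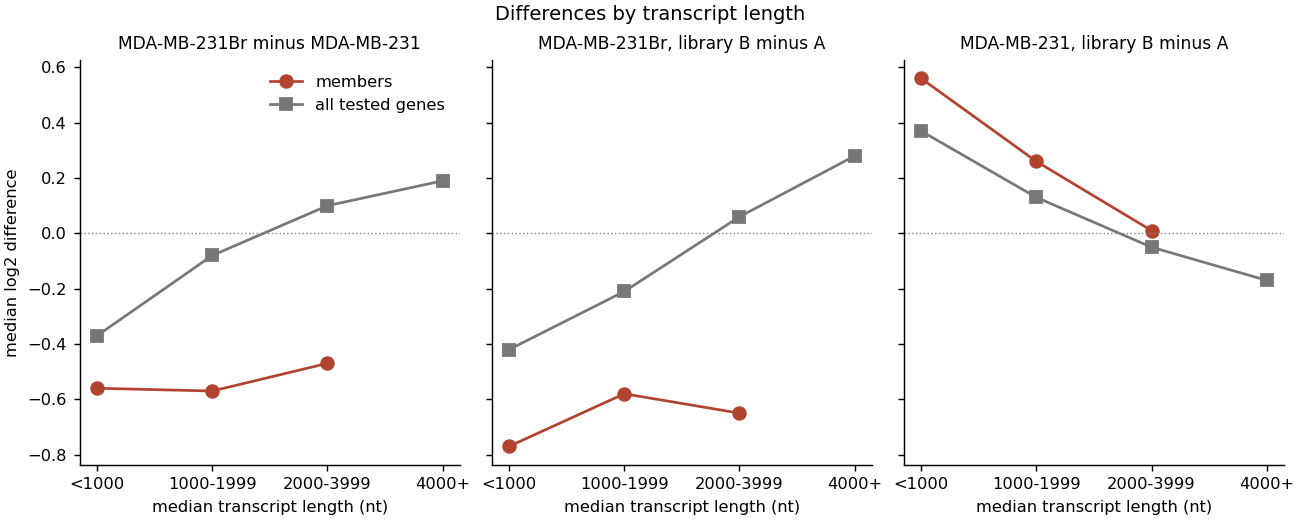
Median log2 difference by class of median transcript length in nucleotides, for the oxidative phosphorylation genes (circles, labelled members) and all tested genes (squares), shown for MDA-MB-231Br minus MDA-MB-231 (left) and for library B minus A within each line. All tested genes run from -0.37 under 1000 nucleotides to 0.19 at 4000 or more between the lines. In the classes below 4000 nucleotides the oxidative phosphorylation genes stay between -0.57 and -0.47. The longest class holds 1 gene of the 79, at -0.06, and has no circle.

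Other genes of the pathway gave 16 calls among 127 tested, 3 higher and 13 lower in MDA-MB-231Br, beside 14.4% of all tested genes called. They came from lists of subunits outside the symbol rule, assembly factors, carriers, ubiquinone synthesis, the TCA cycle and regulators of mitochondrial biogenesis. Among the 3 subunits outside the rule, COX4I1, a regulatory nuclear subunit of complex IV, was called lower, with 4363 and 2916 normalized reads in MDA-MB-231Br, against 6175 and 8684 in MDA-MB-231. Its log2 fold change was -1.04 ± 0.282 (limma-trend adjusted p = 0.0451). Assembly factors were called for complexes II, IV and V only, with 1 of 4, 1 of 25 and 1 of 5, and for complexes I and III with 0 of 18 and 0 of 6. SDHAF3, which helps mature SDHB, was lower by a log2 fold change of -1.43 ± 0.392, with 553 and 301 normalized reads in MDA-MB-231Br and 802 and 1504 in MDA-MB-231 (limma-trend adjusted p = 0.0466). FASTKD3, a mitochondrial RNA-binding protein, had 353 and 431 in MDA-MB-231Br and 932 and 902 in MDA-MB-231 (log2 fold change -1.23 ± 0.25, limma-trend adjusted p = 0.0172). FMC1, a factor for ATP synthase assembly in yeast, had 69.1 and 39.2 in MDA-MB-231Br and 136 and 184 in MDA-MB-231 (log2 fold change -1.58 ± 0.401, limma-trend adjusted p = 0.036). The lines did not overlap for any of these 4 genes. The 13 tested genes of ubiquinone synthesis had 0 calls and a median of -0.15, and the 18 complex I assembly factors a median of -0.38. The most abundant genes of the lists without a call were COA1 for complex I assembly, TTC19 for complex III assembly and COQ10B for ubiquinone synthesis, with log2 fold changes of -0.33 ± 0.291, -0.14 ± 0.224 and 0.06 ± 0.257.

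Of the 7 tested genes for cytochrome c and carriers of the inner membrane, 2 were called lower and 0 higher. Among all tested genes 5.8% were called lower and 8.61% higher. SLC25A6, an ADP/ATP carrier, had 2267 and 1318 normalized reads in MDA-MB-231Br, against 8132 and 9334 in MDA-MB-231, a log2 fold change of -2.33 ± 0.29 (limma-trend adjusted p = 0.00257). It was below the threshold in every fit with 1 library left out, with adjusted p from 2.23e-19 to 0.0209 (limma-trend). Its relative SLC25A5 had 14026 and 10064 in MDA-MB-231Br and 6670 and 6810 in MDA-MB-231, a log2 fold change of 0.82 ± 0.241 that did not pass (limma-trend adjusted p = 0.0577). SLC25A3, the phosphate carrier, had 27862 and 19751 in MDA-MB-231Br and 17838 and 15714 in MDA-MB-231 (log2 fold change 0.49 ± 0.25). UCP2, a carrier of the uncoupling protein family, fell to 556 and 319 in MDA-MB-231Br, against 1616 and 1227 in MDA-MB-231 (log2 fold change -1.74 ± 0.321, limma-trend adjusted p = 0.0118).

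The list for the TCA cycle and pyruvate dehydrogenase had 2 of 25 genes called higher and 5 lower. Of all tested genes, 8.61% were called higher and 5.8% lower. IDH3G, a regulatory subunit of the NAD-dependent isocitrate dehydrogenase, had 1251 and 1169 normalized reads in MDA-MB-231Br, against 408 and 390 in MDA-MB-231 (log2 fold change 1.60 ± 0.237, limma-trend adjusted p = 0.00489). IDH3A, the catalytic subunit of the same enzyme, had 426 and 479 in MDA-MB-231Br and 1191 and 1093 in MDA-MB-231 (log2 fold change -1.33 ± 0.24, limma-trend adjusted p = 0.0105). These 2 subunits moved in opposite directions, with libraries of each line close together. IDH3B, the other subunit of the enzyme, had 2301 and 1790 in MDA-MB-231Br and 1630 and 1565 in MDA-MB-231 and did not pass (log2 fold change 0.35 ± 0.235, limma-trend adjusted p = 0.348). IDH2, the NADP-dependent mitochondrial enzyme, was lower at -1.60 ± 0.342, and PDK4, a kinase that inhibits pyruvate dehydrogenase, at -2.28 ± 0.356 (limma-trend adjusted p = 0.0207 and 0.00615). PDHA1, a catalytic subunit of pyruvate dehydrogenase, and PDK3, another kinase of it, were lower at -0.89 ± 0.229 and -1.14 ± 0.298, and PC, pyruvate carboxylase, was higher at 1.07 ± 0.227.

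Of 21 tested regulators of mitochondrial biogenesis, 1 was called higher and 2 lower, beside 8.61% and 5.8% of all tested genes. PPARGC1A, a coactivator of respiratory genes, had 306 and 231 normalized reads in MDA-MB-231Br, against 66.5 and 122 in MDA-MB-231 (log2 fold change 1.55 ± 0.379, limma-trend adjusted p = 0.0328). TFAM, a packaging and transcription factor of mitochondrial DNA, had 3787 and 4106 in MDA-MB-231Br and 7122 and 7240 in MDA-MB-231 (log2 fold change -0.86 ± 0.211, limma-trend adjusted p = 0.0327). SSBP1, the single-strand binding protein of mitochondrial DNA, had a log2 fold change of -0.86 ± 0.223 (limma-trend adjusted p = 0.0394). The factors whose motifs were searched did not pass, with log2 fold changes of -0.32 ± 0.251 for NRF1, -0.69 ± 0.243 for GABPA, an ETS-family factor, and 0.06 ± 0.209 for YY1. The calls among the 127 genes also depended on which library was left out, as they did over all tested genes. With MDA-MB-231 library A or B left out, SLC25A6 was the 1 gene called.

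**Figure D5:**
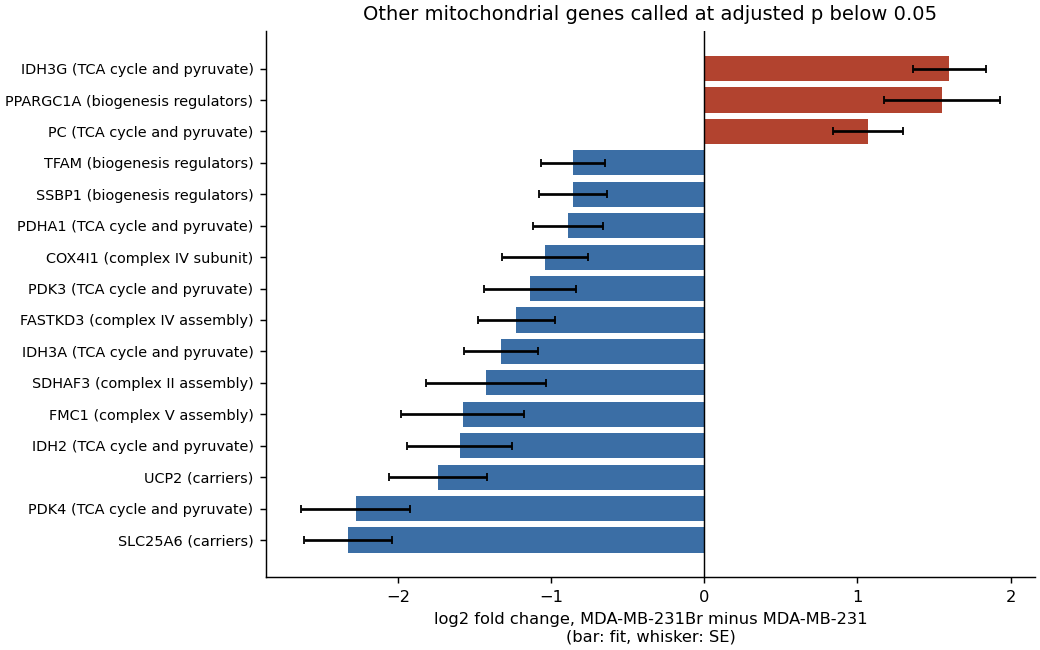
Fitted log2 fold change (MDA-MB-231Br minus MDA-MB-231, bar) with its standard error (whisker) of the 16 pathway genes outside the symbol rule that were called at an adjusted p below 0.05, 3 higher and 13 lower. SLC25A6 is lowest at -2.33 and IDH3G highest at 1.60.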

How the data were processed

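The deposited table holds gene-level values of 2 MDA-MB-231Br and 2 MDA-MB-231 libraries. Per the submitters' processing notes, HISAT2, featureCounts and DESeq2 were used with GRCh37; no source used here gives the library kit, strand setting or annotation. The deposited signal values are not whole numbers, but every value is a whole multiple (tolerance 0.01) of 1 step per library, so whole reads were recovered for 100% of values; the authors thus deposited reads divided by size factors. On these reads edgeR's quasi-likelihood test called 2228 genes. Rows with no gene name (67 of 15346, 0.031% to 0.0369% of reads) were left out, and 20 rows carry dates in place of symbols. Column names give only the line, so libraries were called A and B in column order.

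The filter on low genes was filterByExpr of edgeR on recovered reads (minimum count 10, minimum total 15), and limma-trend was fitted to log2(value + 1), which understates changes of low genes, with Benjamini-Hochberg adjustment over 14424 genes at 0.05. Fits used limma 3.58.1, DESeq2 1.42.0 and edgeR 4.0.16 in R 4.3.3, with Python 3.11.15 for summaries. The fits were tested on simulated data in which genes vary independently. That simulation cannot show how the fits behave when many genes of 1 library shift together. Gene types, lengths and GC content came by symbol from GENCODE release 29 (15227 of 15279 named rows matched; length is the median over a gene's basic transcripts), and promoters from RefSeq (GRCh38.p14); no coordinates were converted. Of the 79 genes, 75 had at least 100 reads in every library. Named genes were, by rule, those called, the highest per kilobase, the largest increase and decrease in each complex, paralogs, and up to 4 called genes of each other list or its most abundant gene where none was called; others were named after their values were seen. Genes and lists were chosen with earlier results of these data known. Alternatives were other tests, scalings, pseudocounts, filters, a length and GC correction, and leaving out each library.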

Additional observations from a re-analysis of the deposited data

How the results depend on the processing

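No paired analysis was possible because the table columns carry no replicate number. For the 79 oxidative phosphorylation genes, the 6 called by limma-trend were called by edgeR's quasi-likelihood test, limma-voom and DESeq2 on recovered reads, and with other scalings, pseudocounts and the stricter filter, and COX8A was lost with no filter and after the length and GC correction. DESeq2 called 17 of the 79 (21.5%), all lower, beside 20.2% of all tested genes in either direction and 8.92% lower. The length and GC correction called 15 (19%), beside 23.3% of all. With 1 library left out, the number ran from 0 to 54. Over all 14424 tested genes, 3350 were called after the length and GC correction, and 421 to 5257 with 1 library left out, beside 2079 with all 4 libraries. Of the pathway genes outside the rule, 28 were called after the length and GC correction and 1 to 45 with 1 library left out, beside 16. After the length and GC correction the median log2 fold change was -0.13 for complex I and -0.20 for complex IV. With 1 library left out it ran from -0.77 to -0.18 for complex I, -0.93 to -0.42 for II, -0.91 to -0.21 for III, -0.87 to -0.05 for IV and -1.16 to -0.41 for V. No complex median and none of the 6 genes changed direction under these alternatives. The cause of these shifts was not tested. Depth was at least 100 reads in every library for 75 of the 79 genes.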
